A study of Mus musculus with 6 samples.

Results

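The genes described here encode the enzymes that break down the branched-chain amino acids leucine, isoleucine and valine, together with those that oxidise ketone bodies. A list of 29 genes was drawn up by biochemical step, with earlier results of these data known, and all 29 were measured among 18193 genes on the array. Their 58 probe sets (groups of short probes for a transcript) were named through the platform annotation, and each gene is given at its probe set with the highest mean over all arrays. Ventricular RNA of mice aged 8 weeks was hybridised to 6 arrays, 3 from wild-type mice and 3 from transgenic mice (caAkt) that express an activated Akt constitutively and only in the heart. Akt is the kinase that carries the insulin and growth factor signal. The labels do not name the promoter that drives the transgene, nor do they tell whether the arrays of a genotype represent different hearts. The p-values therefore rest on the spread among the deposited samples, and that spread may be technical. The comparison asks how the genes for these fuels differ in a heart with a constantly active Akt, in a series about mitochondrial function.

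Branched-chain amino acids enter cells through exchangers of the plasma membrane and lose their amino group to a transaminase. The resulting ketoacids are committed to oxidation by the branched-chain ketoacid dehydrogenase, a complex of the mitochondrial matrix that a kinase switches off and a phosphatase switches on. After this shared entry, leucine yields acetyl-CoA and a ketone body, isoleucine yields acetyl-CoA and propionyl-CoA, and valine yields propionyl-CoA, which a cobalamin-dependent route turns into succinyl-CoA for the tricarboxylic acid cycle. The heart takes up ketone bodies made by the liver and turns them into acetyl-CoA.

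All levels are log2 values as deposited, and a change is the log2 value in caAkt minus that in wild-type, so that -1 means a 2-fold lower value. The array medians lay between 6.77 and 6.80. Between arrays the correlation across probe sets (not independent of each other) was 0.995 to 0.997 within a genotype and 0.983 to 0.985 between genotypes. The probe set of Akt1 that changed most stood at 9.79, 9.79 and 10.18 in the wild-type arrays and at 15.16, 15.1 and 15.08 in the caAkt arrays, which matches the labels. A second Akt1 probe set was lower in caAkt (-0.29 ± 0.08, SE, adjusted p = 0.0281 over all probe sets).

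Of the 29 genes, 23 were lower in caAkt hearts, 1 was higher and 5 did not pass the test (limma, adjusted p under 0.05 over 18193 genes). Over all genes, 12.4% were called lower and 16.1% higher. The median change of the 29 genes was -0.61, against -0.04 over all genes. A fall of at least 2-fold was called for 6 of them, Ppm1k, Aldh6a1, Bckdhb, Mmut, Dbt and Ivd, and for 0.962% of all genes. The 3 caAkt values lay below all 3 wild-type values for 25 of the 29 genes and above them for 2, compared with 21.1% and 21.4% of all genes. The direction of all genes depended on scaling. As deposited, 2254 were called lower and 2929 higher. After each array was centred on the median of its 18193 gene values, 3191 were called lower and 2557 higher. For the 29 genes that centring gave 25 lower and 1 higher.

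**Figure D1:**
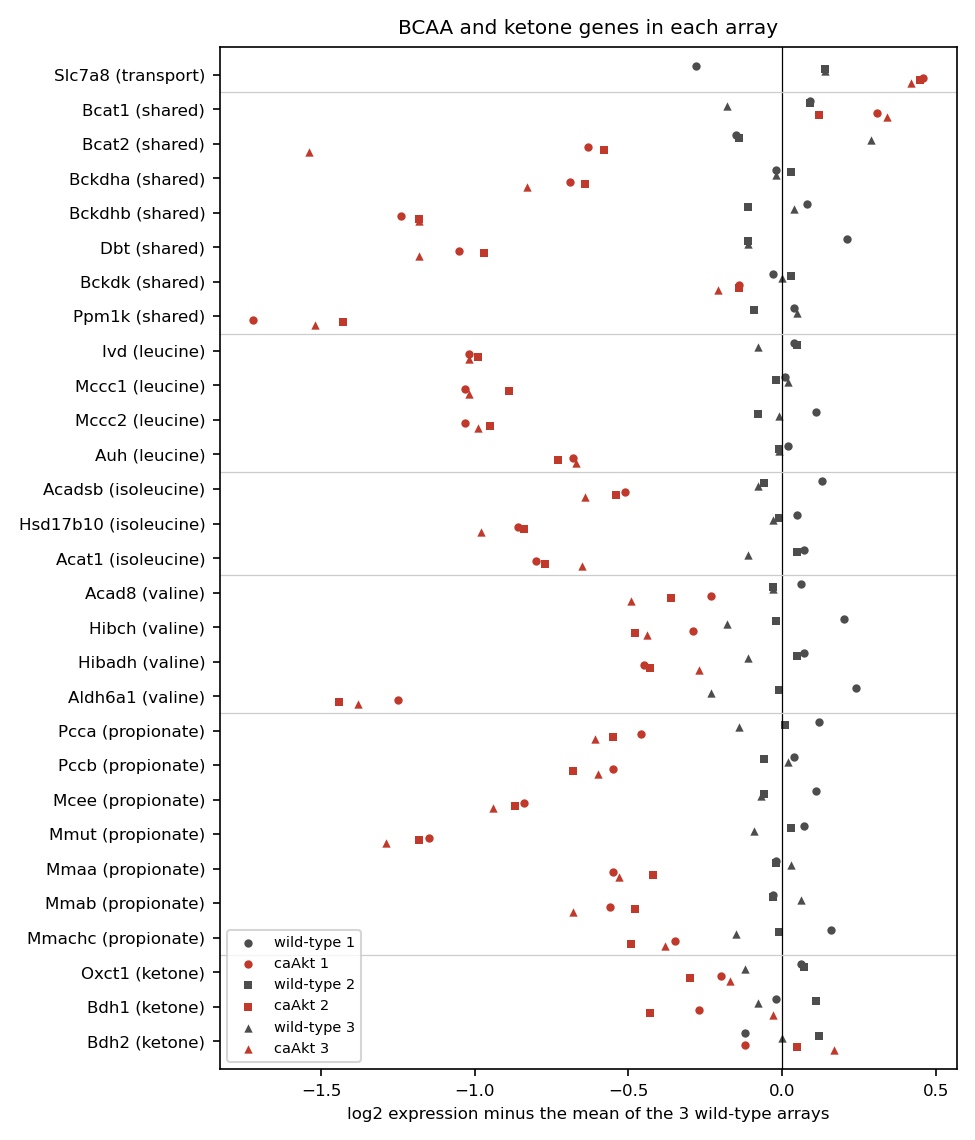
Log2 expression of each gene in each array minus the mean of its 3 wild-type arrays, with genes on the vertical axis grouped by step, wild-type arrays in grey and caAkt arrays in red, and a marker shape for each replicate number. The caAkt values lie left of all wild-type values for 25 of the 29 genes and right of them for Slc7a8 and Bcat1.

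**Figure D2:**
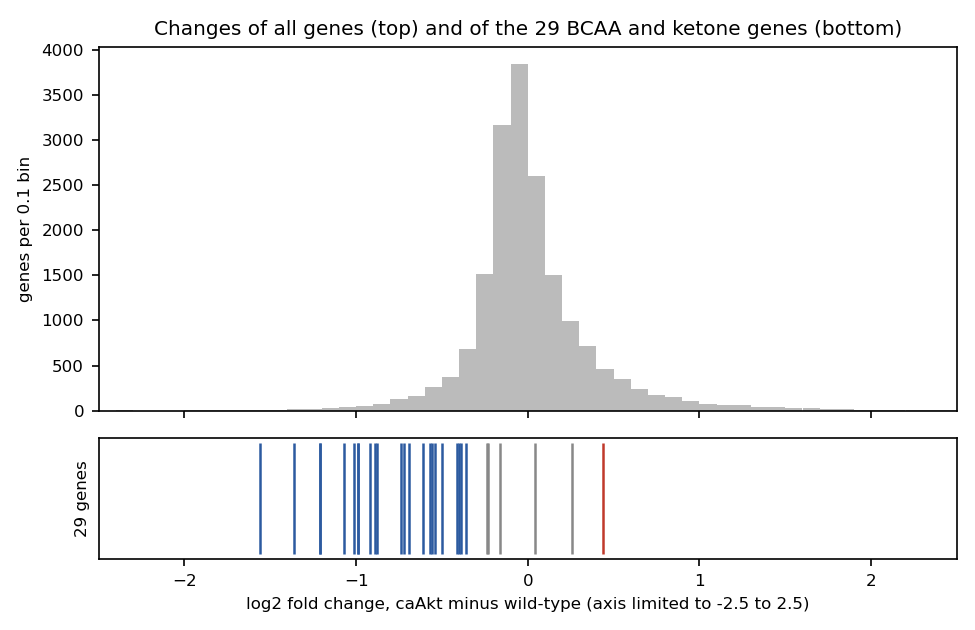
Histogram of the log2 change (caAkt minus wild-type) of all 18193 genes in bins of 0.1 (top), and a vertical line for each of the 29 genes (bottom; blue called lower, red called higher, grey not called). The axis is limited to -2.5 to 2.5. Of the 29 changes 26 are negative, with a median of -0.61, against -0.04 over all genes.

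These changes came beside changes in markers of other cells, and in bulk tissue fewer cells of a type and less RNA per cell cannot be told apart. All 8 macrophage markers rose, with a mean log2 level of 8.84 to 9.12 in wild-type and 10.15 to 10.56 in caAkt arrays. Of 8 fibroblast markers 7 rose, with a mean level of 11.31 to 11.56 against 12.69 to 12.84. Of 10 cardiomyocyte markers 4 fell and 0 rose, with a median change of -0.17 and a mean level of 14.67 to 14.82 against 14.57 to 14.63. Several of these markers lay near the highest value of their array (15.32 to 15.45), where changes may read too small. The mean level of the 29 genes themselves was 10.54 to 10.62 in wild-type and 9.91 to 9.96 in caAkt arrays. Of 8 endothelial markers 3 fell and 0 rose (median -0.20), and of 6 smooth muscle and pericyte markers 1 rose and 0 fell. Of 6 skeletal muscle markers 1 fell and 0 rose, and of 4 liver markers measured 1 fell and 0 rose. The liver markers were dim (mean level 6.05 to 6.14 in wild-type arrays), close to the cut of 5.993 for the dimmest genes. The skeletal muscle marker that fell was bright in wild-type hearts (mean 14.5), so it may not mark skeletal muscle here. Among 3 adipocyte markers measured 2 fell, with a median change of -0.24. The one that changed most, the fat cell hormone gene Adipoq, picked with its value known, stood at 7.67, 6.49 and 6.58 in wild-type and at 5.36, 5.0 and 5.19 in caAkt arrays (change -1.73 ± 0.27, adjusted p = 0.0012). The part of these cell types in the changes below was not tested.

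The exchanger Slc7a8 (LAT2), which trades large neutral amino acids across the plasma membrane, was the only one of the 29 genes called higher. It stood at 5.87, 6.29 and 6.29 in wild-type and at 6.61, 6.6 and 6.57 in caAkt arrays. The groups did not overlap, and the wild-type arrays were spread more widely than the caAkt arrays. These levels are low, with wild-type replicate 1 under the cut of 5.993 for the dimmest genes. The change was 0.44 ± 0.11 (SE, adjusted p = 0.0158), and it was not called without caAkt replicate 1 (0.44, adjusted p = 0.0556) or caAkt replicate 2 (0.44, adjusted p = 0.0554).

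The transaminases act before the pathway is committed. Bcat2, the mitochondrial form that predominates in muscle, read 9.83, 9.84 and 10.27 in wild-type and 9.35, 9.4 and 8.44 in caAkt arrays. All caAkt values were lower, but caAkt replicate 3 lay far under the other caAkt arrays and wild-type replicate 3 above the other wild-type arrays. The change of -0.92 ± 0.24 was called (adjusted p = 0.0181). It was -0.61 without caAkt replicate 3 (adjusted p = 0.0198) and, with the call lost, -0.77 when wild-type replicate 3 was left out (adjusted p = 0.0665).

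Bcat1, the cytosolic form, gave different answers at its 3 probe sets. The probe set with the highest mean read 6.53, 6.53 and 6.26 in wild-type and 6.75, 6.56 and 6.78 in caAkt arrays, and its change of 0.26 was not called (95% interval 0.04 to 0.48, adjusted p = 0.0777). Another, under the cut of 5.993 in wild-type, rose from 5.55, 5.62 and 5.33 to 6.56, 6.35 and 6.81. That change was 1.07 ± 0.12 (adjusted p = 0.000425 over all probe sets). The third had a change of 0.00 ± 0.12 there. Taken as the mean of the 3 probe sets, Bcat1 was called higher (0.44, adjusted p = 0.00962). None of its probe sets was lower, whereas the only probe set of Bcat2 was.

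The genes of the branched-chain ketoacid dehydrogenase fell in all 3 measured subunits that are its own. Bckdha, the alpha subunit of the decarboxylase, read 11.56, 11.61 and 11.56 in wild-type and 10.89, 10.94 and 10.75 in caAkt arrays (change -0.72 ± 0.07, adjusted p = 0.000115). Bckdhb, the beta subunit, read 11.51, 11.32 and 11.47 against 10.19, 10.25 and 10.25, which is 43.3% of the wild-type value (change -1.21 ± 0.07, adjusted p = 6.64e-06). Dbt, the transacylase core on which the complex is built, read 9.89, 9.57 and 9.57 against 8.63, 8.71 and 8.5 (change -1.07 ± 0.10, adjusted p = 7.37e-05). In none of the 3 genes did the groups overlap, and each gap between the groups was wider than the spread within either.

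The enzymes that switch this complex gave unlike values. Ppm1k, the phosphatase that activates it, had the largest change of the 29 genes. It stood at 11.14, 11.01 and 11.15 in wild-type and at 9.38, 9.67 and 9.58 in caAkt arrays, a change of -1.56 ± 0.09 (adjusted p = 4.65e-06) or 34.0% of the wild-type value. A dimmer probe set of Ppm1k, with a wider spread in wild-type (SD 0.49), gave -1.02 ± 0.21 (adjusted p = 0.00931 over all probe sets). Bckdk, the kinase that inhibits the complex, read 9.95, 10.01 and 9.98 in wild-type and 9.84, 9.84 and 9.77 in caAkt arrays. Its groups did not overlap either, but the change of -0.16 was small and not called (95% interval -0.31 to -0.02, adjusted p = 0.0949). Bckdk was called lower after a repeated quantile normalization (-0.22, adjusted p = 0.028), after median centring (-0.21, adjusted p = 0.0344) and with array weights (-0.17, adjusted p = 0.0492). It was not called whichever array was left out (adjusted p up to 0.233). A dimmer probe set of Bckdk gave 0.00 ± 0.09 (adjusted p = 0.992 over all probe sets). The mean of both probe sets was -0.08 and not called (adjusted p = 0.395).

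The difference between phosphatase and kinase within each array was compared directly. Ppm1k minus Bckdk was 1.18, 1.01 and 1.17 in the wild-type arrays and -0.46, -0.17 and -0.19 in the caAkt arrays, a shift of -1.39. The exact two-sided permutation p was 0.1, the smallest that 3 against 3 arrays allow, and 0.175 adjusted over the 7 pairs compared. Bcat2 minus Bcat1 shifted by -1.18 and Bckdha minus Bckdhb by 0.49, each with the same exact p of 0.1. Bcat2 minus Bcat1 read 3.3, 3.32 and 4.01 in wild-type and 2.6, 2.84 and 1.65 in caAkt arrays. Replicate 3 of each genotype thus widened this shift, which also rests on 1 of the 3 differing probe sets of Bcat1. The means of Bckdha minus Bckdhb were 0.14 ± 0.13 for wild-type and 0.63 ± 0.12 for caAkt (SD, n = 3), without overlap. For the paired subunits of the next carboxylases the shifts were 0.01 for Mccc1 minus Mccc2 (exact p = 1.0) and 0.08 for Pcca minus Pccb (exact p = 0.5).

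**Figure D3:**
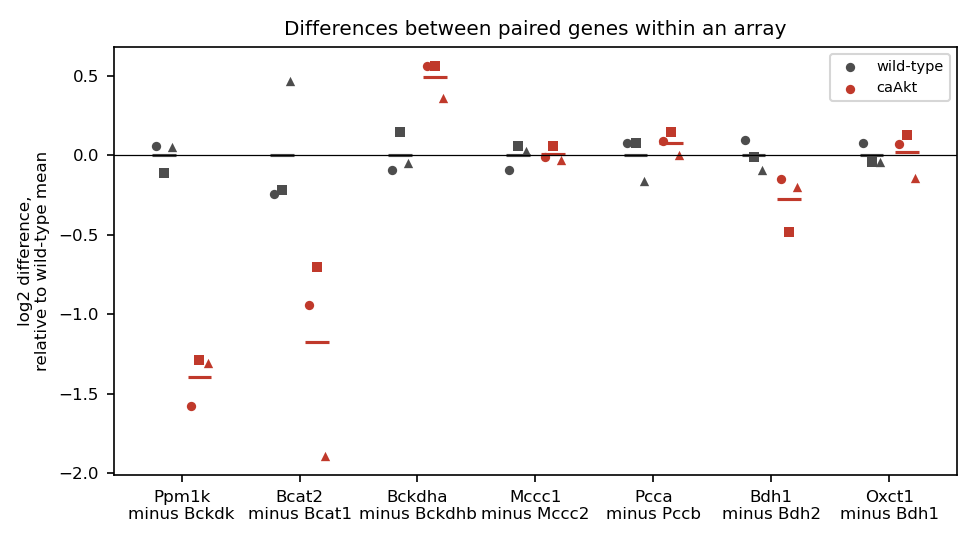
Log2 difference between the genes of each of 7 pairs within an array, relative to its wild-type mean, with a marker shape for each replicate number and a bar for the group mean. In caAkt arrays Ppm1k minus Bckdk lies 1.39 under the wild-type mean on average, while Mccc1 minus Mccc2 lies within 0.01 of it.

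The stretches before the start sites of this phosphatase and kinase are shown because the genes oppose each other on the same complex and had the largest shift among the 7 pairs compared. They hold the 250 bases before the annotated start (RefSeq, GRCm38.p6), 5′ to 3′ on the strand of the gene, at chr6:57535488-57535737 (minus strand) for Ppm1k and chr7:127903823-127904072 (plus strand) for Bckdk. Capitals mark matches, on either strand, to GGGCGG (GC box) and CCAAT.
Ppm1k: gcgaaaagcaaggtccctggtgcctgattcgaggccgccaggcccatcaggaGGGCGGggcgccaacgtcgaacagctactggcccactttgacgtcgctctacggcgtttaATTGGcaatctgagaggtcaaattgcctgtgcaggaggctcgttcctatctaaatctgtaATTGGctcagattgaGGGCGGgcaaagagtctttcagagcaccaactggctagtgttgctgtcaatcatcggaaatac
Bckdk: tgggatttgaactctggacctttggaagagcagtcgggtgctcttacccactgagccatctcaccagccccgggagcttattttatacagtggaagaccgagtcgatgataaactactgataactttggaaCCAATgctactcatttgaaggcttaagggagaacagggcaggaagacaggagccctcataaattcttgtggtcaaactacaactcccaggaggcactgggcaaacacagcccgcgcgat
In Ppm1k the GC boxes begin 198 and 63 bases before the start and the reversed CCAAT boxes 138 and 78 bases before it, while Bckdk holds a single CCAAT box 119 bases before the start.

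Across the group, 26 of the 29 genes were found in the RefSeq promoter table, with 33 promoters of 250 bases before and 50 after the start. A GC box was present in 17 of these 33 promoters (51.5%, against 35.7% of all 32851 promoters) and CCAAT in 18 (54.5%, against 37.4%). Counted by gene, 16 of the 26 had a GC box and 15 had CCAAT, and a share by gene over all genes was not computed. Promoters of the same gene are not independent, and those of Mmaa overlap and share GC boxes. The motif TCAAGGTCA, the site of estrogen-related receptors, occurred in 0 of the 33 and in 0.423% of all promoters. Its inner part AAGGTCA, which overlaps it, occurred in 0 of the 33 and in 4.72% of all. The E-box CACGTG occurred in 1 (Mccc2), against 7.15% of all. The core of the NRF1 site, CGCATGCG, occurred in 1 as well, against 1.87% of all. These are matches of letters in a short window and not measured binding.

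The leucine branch was lower in all 4 genes, with changes of -1.01 to -0.69. Ivd, the isovaleryl-CoA dehydrogenase that opens it, read 11.94, 11.95 and 11.82 in wild-type and 10.88, 10.91 and 10.88 in caAkt arrays (change -1.01 ± 0.07, adjusted p = 1.1e-05). Its second probe set fell further, by 1.65 ± 0.10 on the log2 scale (adjusted p = 1.16e-05 over all probe sets). Mccc1 and Mccc2, the biotin-carrying and the carboxyltransferase subunit of methylcrotonyl-CoA carboxylase, had the same change of -0.99 ± 0.07. The arrays of Mccc1 read 10.01, 9.98 and 10.02 against 8.97, 9.11 and 8.98. Those of Mccc2 read 10.41, 10.22 and 10.29 against 9.27, 9.35 and 9.31, and the other probe sets of both genes were called lower too (-0.57 to -0.81).

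Auh, the hydratase after the carboxylase, read 11.61, 11.58 and 11.58 in wild-type and 10.91, 10.86 and 10.92 in caAkt arrays, a change of -0.69 ± 0.06 (adjusted p = 5.65e-05). That call rested on the brightest of 6 probe sets. The other probe sets of Auh, at mean wild-type levels of 4.74 to 6.82, gave -0.19 to 0.19 and were not called. The mean over all its probe sets was -0.14 and not called (adjusted p = 0.12), and the brightest plain probe set, one made for a single transcript, gave 0.12 (adjusted p = 0.253).

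In the isoleucine branch all 3 genes fell. Hsd17b10, the hydroxyacyl-CoA dehydrogenase of this branch and a subunit of mitochondrial RNase P, read 12.14, 12.08 and 12.06 in wild-type and 11.23, 11.25 and 11.11 in caAkt arrays (change -0.89 ± 0.07, adjusted p = 2.41e-05). Acat1, the thiolase shared by isoleucine and ketone body use, read 13.29, 13.27 and 13.11 against 12.42, 12.45 and 12.57 (change -0.74 ± 0.08, adjusted p = 0.000141), and its other probe sets gave -1.02 and -0.83. Acadsb, the short/branched-chain acyl-CoA dehydrogenase, read 10.84, 10.65 and 10.63 against 10.2, 10.17 and 10.07 (change -0.56 ± 0.08, adjusted p = 0.000817). Acadsb was measured with a single probe set of the kind marked _x_at, whose probes may bind other transcripts.

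The valine branch also fell in all 4 genes, but unevenly. Aldh6a1, the methylmalonate semialdehyde dehydrogenase that ends the branch at propionyl-CoA, had the second largest change of the 29 genes. It stood at 11.79, 11.54 and 11.32 in wild-type and at 10.3, 10.11 and 10.17 in caAkt arrays, which is 39.0% of the wild-type value (change -1.36 ± 0.12, adjusted p = 3.68e-05). The 3 genes before it had smaller changes, with 95% intervals that did not reach that of Aldh6a1 (-1.62 to -1.10), although the differences were not tested themselves. Acad8, the isobutyryl-CoA dehydrogenase, changed by -0.36 (interval -0.54 to -0.17, adjusted p = 0.00949). Hibadh, the hydroxyisobutyrate dehydrogenase, changed by -0.39 (interval -0.57 to -0.20, adjusted p = 0.00691). This probe set of Hibadh is of the kind marked _s_at, whose probes may bind several transcripts. A plain probe set of Hibadh gave -0.42 (adjusted p = 0.00954 over all probe sets).

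Hibch, the hydrolase that releases hydroxyisobutyrate from its CoA ester, read 11.39, 11.17 and 11.01 in wild-type and 10.9, 10.71 and 10.75 in caAkt arrays. The highest caAkt array lay only just under the lowest wild-type array. The change was -0.40 (interval -0.64 to -0.17, adjusted p = 0.018), and the call was lost on leaving out wild-type replicate 1 (-0.30, adjusted p = 0.0515), wild-type replicate 2 (-0.41, adjusted p = 0.0512), caAkt replicate 2 (-0.36, adjusted p = 0.0728) or caAkt replicate 3 (-0.38, adjusted p = 0.0661). The probe set used for Hibch is marked _s_at too, and its other, plain probe set gave -0.34 and was not called.

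**Figure D4:**
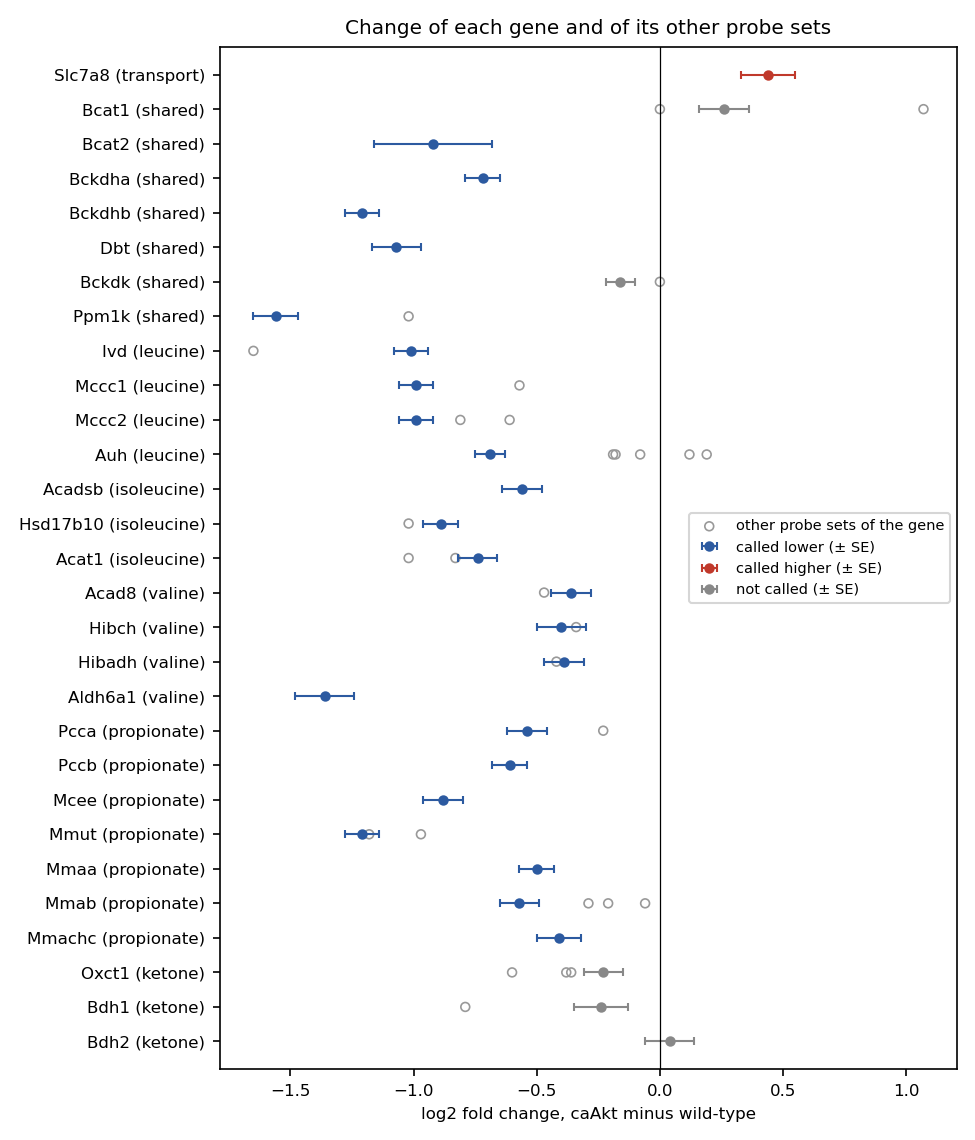
Log2 change (caAkt minus wild-type) of each gene at its main probe set with its moderated standard error, coloured by call, and the other probe sets of the same gene as open circles. Of the 58 probe sets 50 have a negative change. The ketone genes at the bottom and Slc7a8, Bcat1 and Bckdk lie nearest to or right of 0.

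All 7 genes of the propionate route, on which isoleucine and valine converge, were lower. Mmut, the cobalamin-dependent mutase that makes succinyl-CoA, fell most, from 12.08, 12.04 and 11.92 to 10.86, 10.83 and 10.72, or to 43.2% of the wild-type value (change -1.21 ± 0.07, adjusted p = 6.73e-06). Its other probe sets gave -1.18 and -0.97. Mcee, the epimerase just before the mutase, read 11.43, 11.26 and 11.25 in wild-type and 10.48, 10.45 and 10.38 in caAkt arrays (change -0.88 ± 0.08, adjusted p = 4.12e-05). For both enzymes the groups stood far apart compared with the spread within them.

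Both propionyl-CoA carboxylase subunits fell. Pcca, which carries biotin, read 11.51, 11.4 and 11.25 against 10.93, 10.84 and 10.78 (change -0.54 ± 0.08, adjusted p = 0.00135). A dimmer probe set of Pcca gave -0.23 and was not called (adjusted p = 0.207 over all probe sets). Pccb, the carboxyltransferase subunit, read 10.56, 10.46 and 10.54 against 9.97, 9.84 and 9.92 (change -0.61 ± 0.07, adjusted p = 0.000219). Pccb is the gene whose promoter holds the NRF1 core, 34 bases before the start.

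The 3 genes that process and deliver cobalamin for the mutase were called lower too. Mmaa, the chaperone that loads the cofactor onto the mutase, changed by -0.50 (95% interval -0.66 to -0.35, adjusted p = 0.000579). Mmab, the adenosyltransferase that makes its active form, changed by -0.57 (interval -0.74 to -0.40, adjusted p = 0.000518), and Mmachc, which trims cobalamin in the cytosol, by -0.41 (interval -0.61 to -0.20, adjusted p = 0.00904). None of these intervals reached that of Mmut (-1.38 to -1.04), although the differences between the genes were not tested themselves. The 3 other probe sets of Mmab gave -0.06 to -0.29 and were not called.

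Of the 3 ketone genes, 0 were called in either direction by limma over all genes. Acat1, which ketone body use shares, was counted under isoleucine and was called lower (-0.74, adjusted p = 0.000141). Oxct1, the transferase that activates acetoacetate and the committed step of ketone use, read 14.0, 14.01 and 13.82 in wild-type and 13.74, 13.64 and 13.77 in caAkt arrays. All caAkt values were lower, by a narrow margin, and the change was -0.23 (95% interval -0.40 to -0.05, adjusted p = 0.061). The other 3 probe sets of Oxct1 gave -0.36 (adjusted p = 0.0112), -0.38 (adjusted p = 0.216) and -0.60 (adjusted p = 0.0349). Oxct1 was called lower with plain probe sets (-0.36, adjusted p = 0.0069) and with the mean of its probe sets (-0.39, adjusted p = 0.0221). At the brightest probe set it was also called with trend and robust eBayes (adjusted p = 0.0478), without the dimmest genes (0.0494), after repeated quantile normalization (0.0238), after median centring (0.0295), with array weights (0.0179) and without wild-type replicate 3 (0.0257). Whether Oxct1 passed the threshold thus varied with the processing.

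Bdh1, the mitochondrial dehydrogenase that opens the oxidation of hydroxybutyrate, read 11.91, 12.04 and 11.85 in wild-type and 11.66, 11.5 and 11.9 in caAkt arrays. Here the groups overlapped, because caAkt replicate 3 lay among the wild-type arrays. The change was -0.24 ± 0.11 and not called (adjusted p = 0.124), and without caAkt replicate 3 it was -0.35 and called (adjusted p = 0.0321). A dimmer probe set of Bdh1 read 9.82, 10.16 and 9.71 against 9.1, 8.95 and 9.28, without overlap, a change of -0.79 ± 0.13 (adjusted p = 0.00268 over all probe sets). The mean of both probe sets was called lower (-0.52, adjusted p = 0.00811). Bdh1 was called with array weights too (-0.30, adjusted p = 0.0455). The change was negative at all probe sets of Oxct1 and Bdh1.

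Bdh2, a cytosolic dehydrogenase, read 5.12, 5.36 and 5.24 in wild-type and 5.12, 5.29 and 5.41 in caAkt arrays. It lies among the dimmest genes, under a log2 level of 5.993, and its change of 0.04 (95% interval -0.18 to 0.25, adjusted p = 0.814) turned sign under some alternatives, -0.03 being the lowest value. Oxct1 minus Bdh1 within an array shifted by 0.02 (exact permutation p = 0.9) and Bdh1 minus Bdh2 by -0.28 (exact permutation p = 0.1). A test of ketone genes against amino acid genes was not made.

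Probe sets gave a second view of the same RNA. Of the 58 probe sets of the 29 genes, 38 were called lower and 2 higher in a test over all 45037 probe sets, of which 8.76% were called lower and 11.3% higher. Of the 17 genes with several probe sets, 9 had every probe set called lower and 6 had some. These 9 were Acad8, Acat1, Hibadh, Hsd17b10, Ivd, Mccc1, Mccc2, Mmut and Ppm1k. Bcat1 and Bckdk were the genes with several probe sets and none called lower.

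Genes next to the pathway were read from 5 further lists. Of 8 transporters of amino acids and ketone bodies, 3 rose and 1 fell, with a median change of 0.13. Slc7a5 (LAT1), an exchanger that imports branched-chain amino acids, stood at 7.59, 7.72 and 7.69 in wild-type and at 9.15, 9.03 and 8.96 in caAkt arrays, a change of 1.38 ± 0.08 (2.60-fold, adjusted p = 4.31e-06). Its partner chain Slc3a2 changed by 0.37 ± 0.07 (adjusted p = 0.0055). The third, Slc43a2, chosen after its value was seen, changed by 0.28 (adjusted p = 0.0465) and lost its call on leaving out any 1 array other than caAkt replicate 1. Slc16a7, a carrier of pyruvate and ketone bodies, fell by 0.85 ± 0.07 on the log2 scale (adjusted p = 2.27e-05). The related carrier Slc16a1 (-0.13, adjusted p = 0.315) and the mitochondrial importer of branched-chain amino acids Slc25a44 (0.09, adjusted p = 0.445) were not called.

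Of 10 enzymes that mostly serve fatty acid oxidation as well, 9 fell and 1 rose, with a median of -0.64. The electron carrier Etfb, which accepts electrons from Ivd, Acadsb and Acad8, changed by -0.83 ± 0.07 (adjusted p = 3.78e-05). The hydratase Echs1, which acts in the valine and isoleucine branches, changed by -0.77 ± 0.07, and the thiolase Acaa2 by -0.81 ± 0.08. Abat, an aminotransferase of GABA breakdown chosen after its value was seen, rose by 0.44 ± 0.10, but not with the mean of its probe sets (0.12, adjusted p = 0.317).

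Of 13 genes for cobalamin, biotin and lipoate supply and for succinyl-CoA use, 7 fell and 1 rose, with a median of -0.28. Suclg2, a subunit of the succinyl-CoA ligase that takes up the product of Mmut, changed by -0.96 ± 0.08 (adjusted p = 4.26e-05). Mtr, the cobalamin-dependent methionine synthase, changed by -0.77 ± 0.14 (adjusted p = 0.0026; -0.41 as the mean of its probe sets). Sucla2 changed by -0.44 ± 0.08, but by -0.13 and not called as the mean of its probe sets (adjusted p = 0.166). Btd, which recycles biotin and was picked with its value known, rose by 0.28 (adjusted p = 0.0196), and lost its call on leaving out any 1 array other than replicate 2 of either genotype (adjusted p up to 0.059).

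Of 3 measured genes around HMG-CoA and ketone body formation, 1 rose and 0 fell. This was Aacs, which activates acetoacetate in the cytosol (0.27 ± 0.06, adjusted p = 0.00938), and it was not called as the mean of its probe sets (0.12, adjusted p = 0.145). All 4 regulators listed fell. Klf15, a factor known to raise the genes of branched-chain amino acid breakdown in the heart, read 10.44, 10.6 and 10.5 in wild-type and 8.73, 9.42 and 9.25 in caAkt arrays (change -1.38 ± 0.15, adjusted p = 0.00019). The coactivator gene Ppargc1a changed by -1.79 ± 0.17 and the fatty acid receptor Ppara by -0.87 ± 0.13. Esrra, chosen after its value was seen, changed by -0.23 (adjusted p = 0.0436) and lost its call whichever array was left out (adjusted p up to 0.121).

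**Figure D5:**
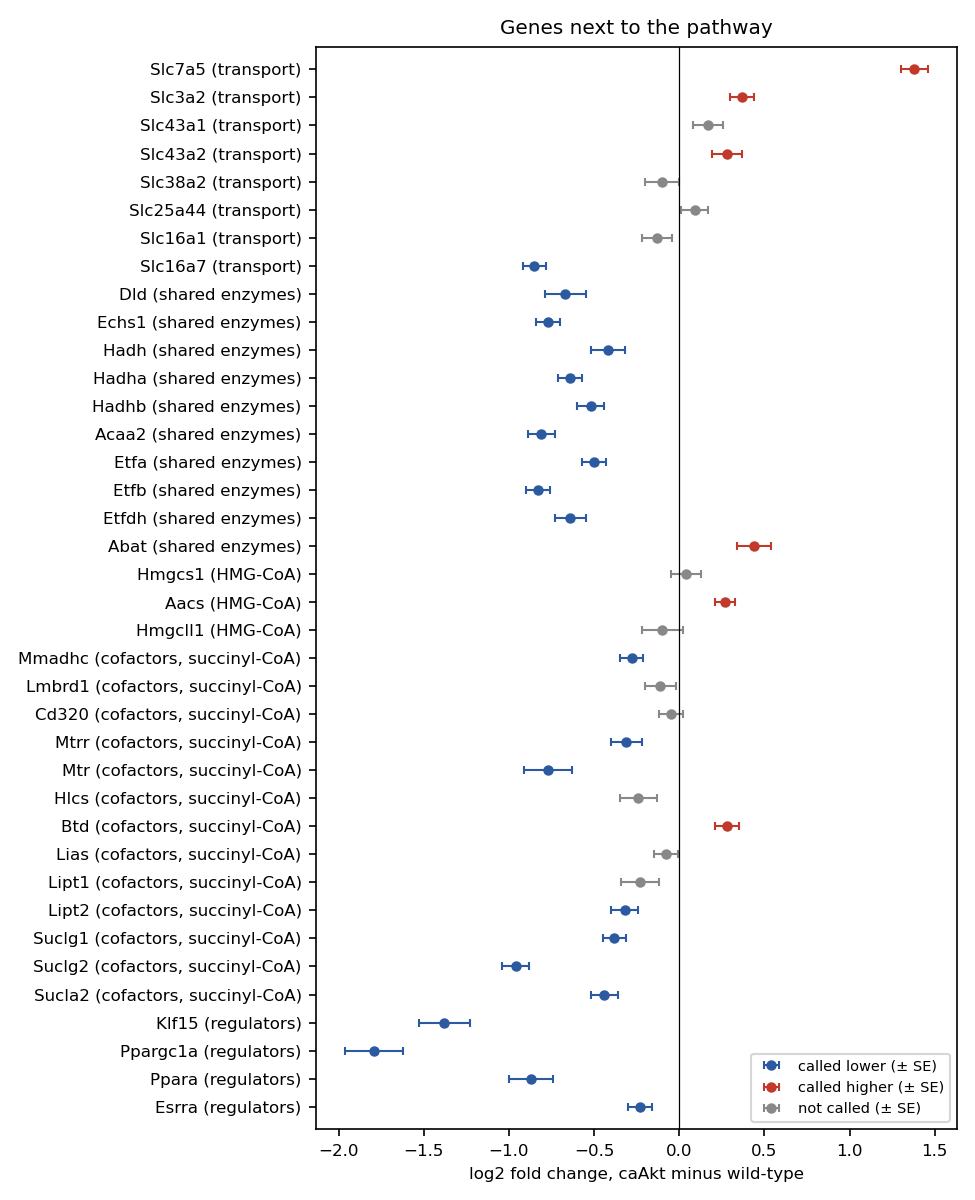
Log2 change (caAkt minus wild-type) with its moderated standard error for 38 genes next to the pathway, grouped by list and coloured by call. Slc7a5 lies furthest right at 1.38 and Ppargc1a furthest left at -1.79, and 9 of the 10 shared enzymes lie left of 0.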

How the data were processed

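The deposited table holds log2 values for 45101 probe sets on 6 arrays. The authors computed the log2 values by RMA with affy, per the submitters' processing notes. RMA corrects background, gives all arrays the same distribution and summarises probes, which can hide a shift common to most genes. Versions, batches and genome build are not given in the sources used here. The gene table leaves out 64 control probe sets, 932 with several symbols and 9160 without a symbol. Gene identifiers of 34741 of 34945 probe sets with 1 symbol matched RefSeq (GRCm38.p6), which changed 0 symbols. Genotypes were tested by limma 3.58.1 under R 4.3.3 (lmFit, eBayes, two-sided, 4 residual degrees of freedom), with Benjamini-Hochberg adjustment over all 18193 genes, or over all probe sets where stated. Intervals of 95% use the moderated standard error. Pairs of genes were compared by exact permutation. The number of arrays limits the precision. Steps were tested on simulated data with 67, 67 and 66 genes changed by 0.25, 0.5 and 1 on the log2 scale. Of these, limma recovered 1.49%, 46.3% and 87.9%. The genes and lists were chosen with earlier results of these data known. The text names all 29 genes, Akt1 and, per further list, up to 3 called genes with the smallest p. Members of a further list beyond that rule, and the marker Adipoq, were named after their values were seen. Protein sequences were not used here. The alternatives are those in the closing section.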

Additional observations from a re-analysis of the deposited data

How the results depend on the processing

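Calls were recomputed with other probe set choices (mean per gene, plain, or each as a row), without genes under a log2 level of 5.993, with quantile normalization repeated, arrays centred or weighted, trend and robust eBayes, replicate blocks, a threshold of 0.01, and each array left out. Of the 24 called genes among the 29, 20 kept their call wherever a value was given; the others were Slc7a8, Bcat2, Auh and Hibch. Lower calls ranged from 22 to 23 without single arrays. With the replicate block 23 were lower and 1 higher (median -0.61). Deviations from the group mean of arrays with equal replicate numbers correlated at 0.265, 0.0308 and -0.121, which cannot tell whether samples were paired. The number called higher was 2 with the mean of probe sets and with repeated quantile normalization, 0 at a threshold of 0.01, and 0 to 1 without single arrays. The median change was -0.55 with plain probe sets, which measured 26 of the 29. At a threshold of 0.01, 1270 of all genes were lower, against 2254. Auh turned to 0.12 with plain probe sets, and Bdh2 to -0.01 with median centring, -0.02 with array weights and -0.03 to 0.11 without single arrays. The alternatives for the further lists were added after the data were seen. The causes were not tested, and with 3 arrays a group small changes may be missed.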

Other observations

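Among the wild-type arrays, replicate 1 held the highest value for 17 of the 29 genes, replicate 2 for 6 and replicate 3 for 6, and replicate 3 held the lowest value for 14. Among the caAkt arrays the highest values were shared more evenly, at 10, 11 and 8 genes, and the lowest at 9, 8 and 12. Leaving out wild-type replicate 3 gave a median change of -0.60 and 23 lower calls, and leaving out wild-type replicate 1 gave -0.59 and 22.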
